A study of Homo sapiens with 9 samples.

Results

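The transforming growth factor beta (TGF-β) genes described here are 10 genes of 36225 in the deposited expression table, taken by their symbols. They comprise the ligands TGFB1, TGFB2 and TGFB3, the activin subunit INHBA, the latency protein LTBP1, the receptors TGFBR1, TGFBR2 and TGFBR3, and the feedback genes SMAD7 and SKIL. Their transcripts were measured by sequencing poly(A) RNA of RBE, a human intrahepatic cholangiocarcinoma line, which is a cancer of the bile duct epithelium. The cells carried a lentivirus with a short hairpin against IDH1 (shIDH1), a short hairpin against JOSD2 (shJOSD2) or a scramble hairpin (control), with 3 libraries in each of the 3 groups. The series title concerns mutant IDH1 and its relation to the deubiquitinase JOSD2 and to YAP/TAZ, the transcriptional co-activators of the Hippo pathway. Every group, control included, is the same line infected with lentivirus, each hairpin group is labelled by its target only, and the labels do not state separate cultures for the 3 libraries of a group. The p-values below therefore reflect only how far these libraries scatter, and that scatter may be technical.

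TGF-β ligands are secreted in latent complexes that LTBP proteins tether to the extracellular matrix. Once freed, a ligand binds TGFBR2, which recruits and phosphorylates TGFBR1, and TGFBR1 then phosphorylates SMAD2 and SMAD3, which enter the nucleus with SMAD4. SMAD7 and SKIL are transcribed in response to this signal and restrain it. In bile duct epithelium the pathway is known for growth arrest, and in cholangiocarcinoma for the dense fibrous stroma around the tumour.

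The deposited table gives counts and FPKM (fragments scaled by transcript length and sequencing depth), which can be set side by side between genes. The deposited counts summed to between 66036276 and 71612713 per library, and all 10 genes were among the 21492 that passed the filter on low counts. Fold changes are log2 changes ± SE from edgeR's quasi-likelihood test on the counts over all 9 libraries, with p-values adjusted by the Benjamini-Hochberg method over all tested genes and a threshold of 0.05. IDH1 averaged 12.6 ± 0.446 FPKM in shIDH1, 34.5 ± 1.56 FPKM in shJOSD2 and 44.0 ± 4.44 FPKM in control (SD, n = 3 each). JOSD2 averaged 1.68 ± 0.174 FPKM in shIDH1, 0.795 ± 0.101 FPKM in shJOSD2 and 6.37 ± 0.260 FPKM in control. Each targeted gene was thus lowest in its own hairpin group, and JOSD2 was also lower in shIDH1 than in control, 3.78-fold by mean FPKM (adjusted p = 7.69e-07). IDH1 was likewise called lower in shJOSD2 than in control, by less, with FPKM ranges that did not overlap (32.7 to 35.5 against 38.9 to 47.4).

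The control libraries differed among themselves in some liver-type transcripts. The summed FPKM of 10 hepatocyte markers ran between 92.9 and 98.4 in shIDH1, between 57.9 and 60.8 in shJOSD2 and between 38.6 and 93.1 in control. The shIDH1 sum was mostly FGB and SERPINA1, at means of 42.9 and 48.9 FPKM, against 1.70 and 35.1 FPKM in control. Against control, 2 of the 10 markers were called higher and 5 lower in shIDH1, and 2 higher and 5 lower in shJOSD2. That was 70% in each, where 50.1% and 38.3% of all tested genes were called. Within control, APOA1, a lipoprotein component made by hepatocytes, was 2.91, 40.05 and 45.5 FPKM in replicates 1, 2 and 3. FGB and SERPINA1 varied less there, between 1.53 and 1.87 FPKM and between 33.6 and 37.8 FPKM. Each call against control was therefore also computed with control replicate 1 as the only control, an alternative in which the lone library is assumed to vary like the other groups. The median log2 change of the hepatocyte markers was -1.93 in shIDH1 and -2.37 in shJOSD2 against all control libraries. In that alternative both medians turned, to 0.90 in shIDH1 and 0.62 in shJOSD2, so the lower levels depend on control replicates 2 and 3. The 8 biliary markers summed to between 1825 and 1840 FPKM in shIDH1, between 1468 and 1519 FPKM in shJOSD2 and between 1581 and 1846 FPKM in control, with CFTR under 1 FPKM throughout. The sum in shIDH1 joins opposite moves. KRT7 averaged 198 FPKM there against 362 FPKM in control, KRT8 534 against 361 FPKM and KRT18 526 against 400 FPKM. Of the 8 markers, 3 were called higher and 2 lower in shIDH1 (62.5%), and 1 higher and 5 lower in shJOSD2 (75%). All 5 endothelial and all 3 platelet markers were under 1 FPKM in every library.

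In shIDH1 cells, 7 of the 10 genes rose and 1 fell against control. The 7 were TGFB1, TGFB2, TGFB3, INHBA, TGFBR2, TGFBR3 and SMAD7, and the gene that fell was TGFBR1. This was 80% of the members, where the same test called 50.1% of all tested genes, 24.5% higher and 25.6% lower. The median log2 change was 0.55 over the members and 0.01 over all tested genes. The FPKM ranges of shIDH1 and control did not overlap for 8 of 10 members, as for 56.9% of all tested genes. With control replicate 1 as the only control, the median log2 change was 0.63 over the members and 0.05 over all tested genes.

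In shJOSD2 cells, 7 of the 10 genes also rose and 1 fell against the same control libraries. TGFB1, TGFB2, TGFB3, INHBA, LTBP1, TGFBR1 and TGFBR2 were higher, and SKIL was lower. Over all tested genes 38.3% were called, 18.2% higher and 20.1% lower, and the median log2 change was 0.41 over the members and 0.03 over all genes. The FPKM ranges did not overlap for any of the 10 members, as for 51.7% of all tested genes. The direction of weak changes in this comparison depends on scaling: of the genes called in either direction, 47.4% were higher in the fit used here, against 65.8% when library totals were used without TMM factors, which moved the median of all genes to 0.18. With control replicate 1 as the only control, the median log2 change was 0.31 over the members and 0.06 over all tested genes.

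Between the hairpin groups, 5 members were higher in shIDH1 than in shJOSD2 (TGFB2, INHBA, TGFBR3, SMAD7 and SKIL) and 3 were lower (TGFBR1, TGFBR2 and LTBP1). Over all tested genes 44.8% were called in this comparison, 20.8% higher and 24% lower, and the FPKM ranges did not overlap for 58.4% of genes and for 8 of the 10 members. Of the genes called, 46.5% were higher in shIDH1, against 33.3% without TMM factors, where the median of all genes was -0.21. The plot of log2 changes shows the members in the 3 comparisons.

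**Figure D1:**
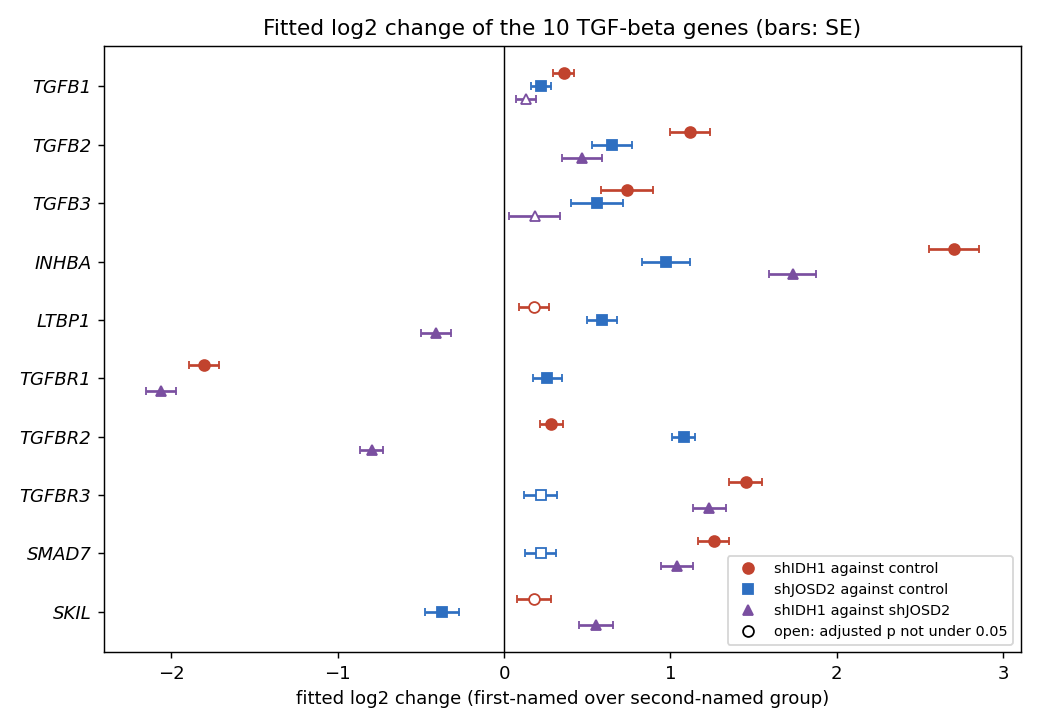
Log2 change of the 10 TGF-β genes (x axis) in shIDH1 against control, shJOSD2 against control and shIDH1 against shJOSD2, from edgeR's quasi-likelihood fit on counts; bars are standard errors, and open symbols did not pass the threshold of 0.05. INHBA at 2.71 and TGFBR1 at -1.80 lie farthest from 0 in shIDH1 against control, while TGFBR2 at 1.08 lies farthest in shJOSD2 against control.

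Of the 3 TGF-β ligands, TGFB2 had the largest fitted change against control in both hairpin groups. The changes of the ligands were not tested against each other. TGFB2 (chr1:218345336-218444619, + strand, GRCh38 coordinates of the deposited table) was 41.9, 34.3 and 35.0 FPKM in shIDH1, 29.6, 30.4 and 28.7 FPKM in shJOSD2, and 18.6, 12.9 and 19.8 FPKM in control. Every shIDH1 library was above every shJOSD2 library, and every shJOSD2 library was above every control library. The fitted log2 change was 1.12 ± 0.12 in shIDH1 (adjusted p = 7.24e-06) and 0.65 ± 0.12 in shJOSD2 (adjusted p = 0.00102). Between the hairpin groups it was 0.47 ± 0.12 (adjusted p = 0.00645), a call that was lost without TMM factors (adjusted p = 0.0614) and in limma fits on log2 FPKM (adjusted p between 0.0907 and 0.190).

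TGFB1, the most widely expressed of the ligands and the main one made by platelets, leukocytes and many epithelia, rose by less. TGFB1 (chr19:41301587-41353922, - strand) was 33.2, 32.3 and 33.0 FPKM in shIDH1, 35.5, 32.8 and 31.0 FPKM in shJOSD2, and 26.4, 25.4 and 24.96 FPKM in control. Both hairpin groups were above every control library, and they overlapped each other. The log2 change was 0.36 ± 0.06 in shIDH1 (adjusted p = 0.000321) and 0.22 ± 0.06 in shJOSD2 (adjusted p = 0.0113). The second value was 0.38 without TMM factors, and with control replicate 1 as the only control it was 0.21 and not called (adjusted p = 0.102). Between shIDH1 and shJOSD2 the difference was 0.13 on the log2 scale, with a 95% interval of 0.00 to 0.27 (adjusted p = 0.0962). It was called in 3 of 21 alternatives, with relative log expression factors (adjusted p = 0.0483), with the compared groups alone (0.0302) and without shJOSD2 replicate 1 (0.0305). Its sign turned, without a call, in the limma fits (-0.01) and without TMM factors (-0.02). TGFB1 shares 215 of its 3238 exonic bases in GENCODE release 29 with HNRNPUL1 on the opposite strand, which had between 17367 and 27641 counts. The library kit marks strand, but whether counting used it is not given in the sources used here; reads over the shared bases cannot be assigned with certainty. The antisense TGFB3-AS1, which shares 163 of 4914 exonic bases of TGFB3, had between 0 and 13 counts. TGFB2-OT1, on the same strand as TGFB2, shares 1371 of 5151 exonic bases of TGFB2 and had between 3 and 6 counts. AC019127, on the opposite strand, shares 249 of 7329 exonic bases of LTBP1 and had between 0 and 8 counts.

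TGFB3 was the least abundant ligand. TGFB3 (chr14:75958097-75981995, - strand) was 2.12, 1.47 and 1.52 FPKM in shIDH1, 1.55, 1.79 and 1.64 FPKM in shJOSD2, and 0.920, 0.994 and 1.12 FPKM in control. Both hairpin groups lay above every control library, and the shJOSD2 libraries lay within the range of shIDH1. The log2 change was 0.74 ± 0.16 in shIDH1 (adjusted p = 0.00158) and 0.56 ± 0.16 in shJOSD2 (adjusted p = 0.0132). Between the hairpin groups the 95% interval ran from -0.15 to 0.52 (adjusted p = 0.381).

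The 3 ligands together, as summed FPKM, came to 77.2, 68.0 and 69.5 in shIDH1, 66.6, 65.1 and 61.3 in shJOSD2, and 45.9, 39.3 and 45.9 in control. TGFB2 made up 54.2%, 50.4% and 50.4% of that sum in shIDH1, 44.4%, 46.8% and 46.7% in shJOSD2, and 40.5%, 32.8% and 43.1% in control. TGFB2 was therefore the more abundant of the 2 main ligands only in shIDH1, where its FPKM was 1.13 ± 0.115 times that of TGFB1, against 0.895 ± 0.0534 times in shJOSD2 and 0.668 ± 0.147 times in control (SD, n = 3 each). These ratios are descriptions, without a test. In bulk RNA, a change in the share of cells that make a transcript and a change in the amount per cell cannot be told apart.

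**Figure D2:**
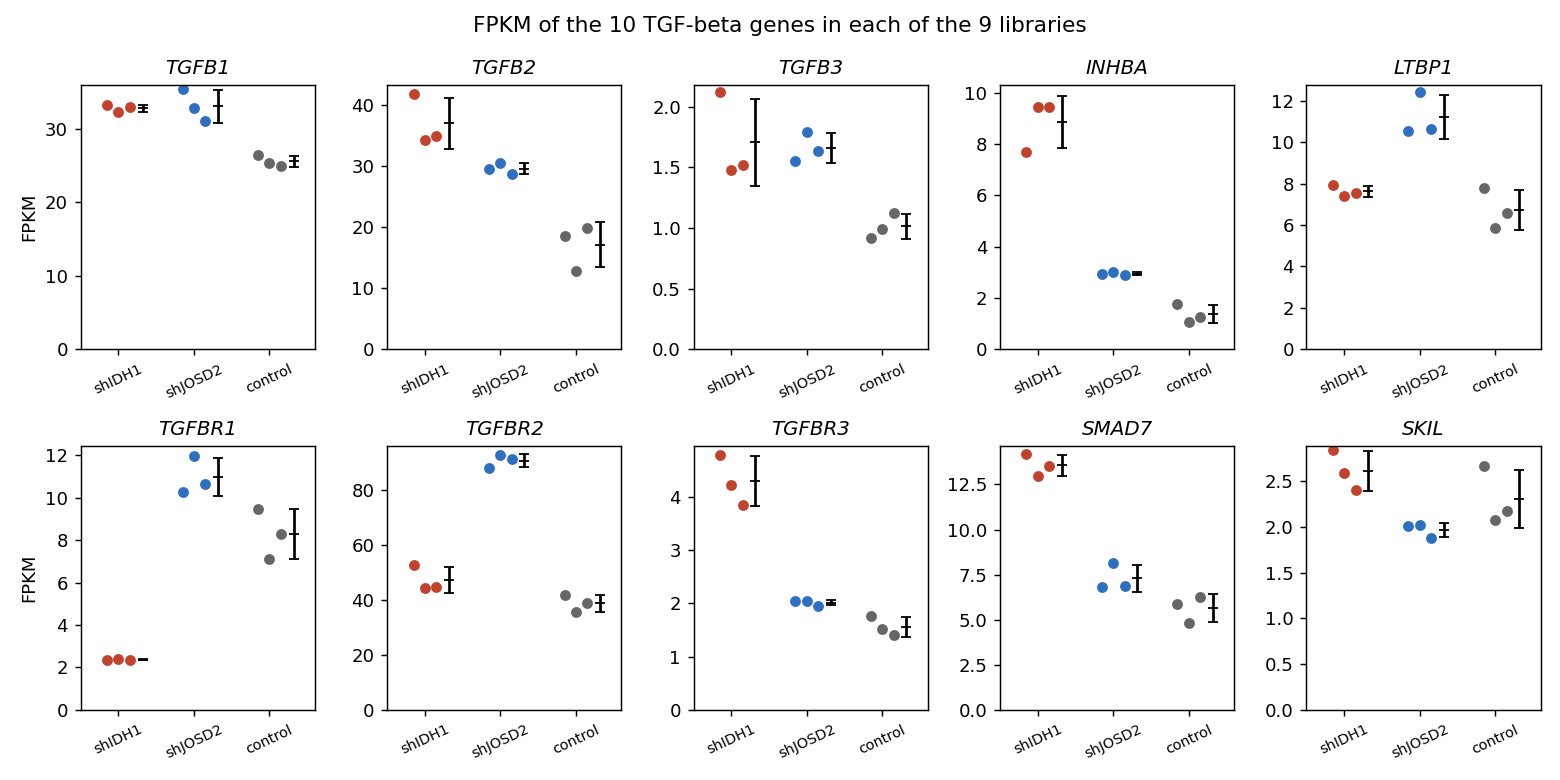
FPKM of each of the 10 TGF-β genes in every library (points) with the group mean and SD beside them (n = 3), for shIDH1, shJOSD2 and control; each panel has its own axis. TGFBR1 is lowest in shIDH1, between 2.34 and 2.39 FPKM, TGFBR2 is highest in shJOSD2, between 87.8 and 92.7 FPKM, and INHBA steps down across shIDH1, shJOSD2 and control.

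The promoters of TGFB2 and TGFB1 are shown because the 2 main ligands differed in how far they changed and because the series concerns YAP/TAZ, which act through TEAD factors on the motif CATTCC. RefSeq promoter windows (GRCh38.p14, 250 bases before to 50 after a start site) were searched on both strands for CATTCC, for the SMAD motif CCAGACA and for the AP-1 motif TGANTCA. Over 35116 windows, 14.0% held CATTCC, 4.78% held CCAGACA and 7.71% held TGANTCA. All 10 members had a window. For INHBA and SMAD7 its start site lay inside the gene, 2245 and 1087 bases from the start in the deposited table. For each member only the window nearest that start was counted, and TGFBR1, SMAD7, LTBP1, TGFB3 and TGFBR2 had further windows. In the counted windows CATTCC occurred once, in TGFB2, and TGANTCA once, in TGFBR2, while CCAGACA did not occur. A match describes the letters of the window and is not evidence of binding. The TGFB2 stretch (chr1:218345096-218345325, + strand) carries the TEAD motif in capitals, 185 bases before the start, and lies in an exon of the antisense TGFB2-AS1. The TGFB1 stretch (chr19:41353933-41354162, - strand) has none of the motifs, and its GC content is 77.0% against 50.4% for TGFB2. The 30 bases of TGFBR2 (chr3:30606583-30606612, + strand) have the AP-1 match in capitals, which begins 6 bases before the start.
TGFB2: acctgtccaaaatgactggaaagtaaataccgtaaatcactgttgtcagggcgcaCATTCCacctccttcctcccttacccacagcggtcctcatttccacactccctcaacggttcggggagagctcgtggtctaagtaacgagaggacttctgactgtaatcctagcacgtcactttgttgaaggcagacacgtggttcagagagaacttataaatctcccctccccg
TGFB1: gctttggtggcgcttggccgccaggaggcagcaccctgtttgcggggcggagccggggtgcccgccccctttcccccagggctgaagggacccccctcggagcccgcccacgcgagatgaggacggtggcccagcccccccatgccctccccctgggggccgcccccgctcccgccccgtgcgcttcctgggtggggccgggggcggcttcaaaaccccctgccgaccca
TGFBR2: gttgaagttgagTGAGTCActcgcgcgcac

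INHBA, whose dimer is activin A, had the largest change of the 10 genes in shIDH1. INHBA (chr7:41667168-41705335, - strand) was 7.67, 9.42 and 9.43 FPKM in shIDH1, 2.92, 3.01 and 2.89 FPKM in shJOSD2, and 1.76, 1.07 and 1.24 FPKM in control. The 3 groups were separate, with shIDH1 highest and control lowest. Mean FPKM was 6.51-fold higher in shIDH1 than in control, and the log2 change was 2.71 ± 0.15 (adjusted p = 2.15e-08). In shJOSD2 the log2 change was 0.97 ± 0.14 (adjusted p = 0.000186), and with control replicate 1 as the only control it was 0.63 (adjusted p = 0.00602). Between the hairpin groups it was 1.73 ± 0.14 (adjusted p = 8.95e-07).

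INHBB, which encodes the other main activin subunit and pairs with itself or with the INHBA product, went the opposite way. Its log2 change was -1.48 ± 0.07 in shIDH1 (adjusted p = 8.91e-09) and -0.74 ± 0.07 in shJOSD2 (adjusted p = 6.42e-06). INHBB averaged 20.5 ± 2.15 FPKM in shIDH1, 37.8 ± 0.553 FPKM in shJOSD2 and 56.8 ± 3.57 FPKM in control (SD, n = 3 each). The INHBB to INHBA ratio of FPKM was 3.00, 2.07 and 2.02 in shIDH1, 12.7, 12.7 and 13.1 in shJOSD2, and 30.9, 51.6 and 49.0 in control. INHBB remained the more abundant subunit in all 9 libraries, by the smallest margin in shIDH1.

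LTBP1, which binds latent TGF-β and anchors it in the matrix, rose in shJOSD2. LTBP1 (chr2:32946953-33399509, + strand) was 7.93, 7.39 and 7.57 FPKM in shIDH1, 10.6, 12.4 and 10.7 FPKM in shJOSD2, and 7.77, 5.84 and 6.59 FPKM in control. The shJOSD2 libraries were above all others, while shIDH1 and control overlapped. The log2 change was 0.59 ± 0.09 in shJOSD2 (adjusted p = 0.000224) and 0.18 ± 0.09 in shIDH1, with a 95% interval of -0.02 to 0.38 (adjusted p = 0.118). The shIDH1 value was called with upper-quartile factors (0.29, adjusted p = 0.0164) and without control replicate 1 (0.29, adjusted p = 0.0132). Between shIDH1 and shJOSD2 the log2 change was -0.41 ± 0.09 (adjusted p = 0.00226).

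TGFBR1, the type I receptor kinase that phosphorylates SMAD2 and SMAD3, was the member that fell in shIDH1. TGFBR1 (chr9:99104038-99154192, + strand) was 2.34, 2.39 and 2.37 FPKM in shIDH1, 10.3, 11.97 and 10.7 FPKM in shJOSD2, and 9.47, 7.10 and 8.28 FPKM in control. The shIDH1 libraries lay far below all others, and the shJOSD2 libraries lay above every control library. Mean FPKM was 3.50-fold lower in shIDH1 than in control, and the log2 change was -1.80 ± 0.09 (adjusted p = 1.17e-08). Against shJOSD2 it was -2.06 ± 0.09 (adjusted p = 7.14e-09). The log2 change in shJOSD2 against control was 0.26 ± 0.09 (adjusted p = 0.0337). That call was lost in 7 of 22 alternatives: without control replicate 2 (adjusted p = 0.124) or 3 (0.0668), without shIDH1 replicate 2 (0.0501), without shJOSD2 replicate 2 (0.135), without a filter (0.0696), with a replicate block (0.0594), and with control replicate 1 as the only control (0.536).

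TGFBR2, the type II receptor that binds the ligand first, was the most abundant member in every group. TGFBR2 (chr3:30606601-30694142, + strand) was 52.7, 44.1 and 44.7 FPKM in shIDH1, 87.8, 92.7 and 91.1 FPKM in shJOSD2, and 41.8, 35.5 and 38.8 FPKM in control. The shJOSD2 libraries stood apart, and the shIDH1 libraries were just above control. The log2 change was 1.08 ± 0.07 in shJOSD2 (adjusted p = 2.87e-07) and 0.28 ± 0.07 in shIDH1 (adjusted p = 0.00405). With control replicate 1 as the only control, the shIDH1 value was 0.21 and not called (adjusted p = 0.0971). Between shIDH1 and shJOSD2 it was -0.80 ± 0.07 (adjusted p = 1.44e-06).

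TGFBR3, or betaglycan, presents ligand to TGFBR2 and binds TGFB2 in particular, for which TGFBR2 alone has low affinity. TGFBR3 (chr1:91680343-91886151, - strand) was 4.79, 4.22 and 3.85 FPKM in shIDH1, 2.04, 2.05 and 1.95 FPKM in shJOSD2, and 1.77, 1.51 and 1.40 FPKM in control. The shIDH1 libraries were above all others, and the shJOSD2 libraries were slightly above control without overlap. The log2 change was 1.45 ± 0.10 in shIDH1 (adjusted p = 1.30e-07) and 1.23 ± 0.10 between shIDH1 and shJOSD2 (adjusted p = 7.60e-07). In shJOSD2 against control it was 0.22 ± 0.10, with a 95% interval of 0.00 to 0.44 (adjusted p = 0.103). That value was called without TMM factors (0.37, adjusted p = 0.0134), with upper-quartile factors (adjusted p = 0.0268), in limma fits on log2(FPKM + 1) and log2(FPKM + 0.1) (0.0471 and 0.0318) and without control replicate 1 (0.0329).

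The proportions of the receptors differed between the groups. The TGFBR2 to TGFBR1 ratio of FPKM was 22.5, 18.4 and 18.8 in shIDH1, 8.53, 7.74 and 8.56 in shJOSD2, and 4.41, 5.00 and 4.68 in control. It was thus highest in shIDH1, where TGFBR1 was low, and between the other two groups in shJOSD2, where TGFBR2 was high. The TGFBR3 to TGFBR2 ratio was 0.0909, 0.0957 and 0.0862 in shIDH1, 0.0233, 0.0221 and 0.0214 in shJOSD2, and 0.0423, 0.0426 and 0.0361 in control. No group overlapped another in either receptor ratio.

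**Figure D3:**
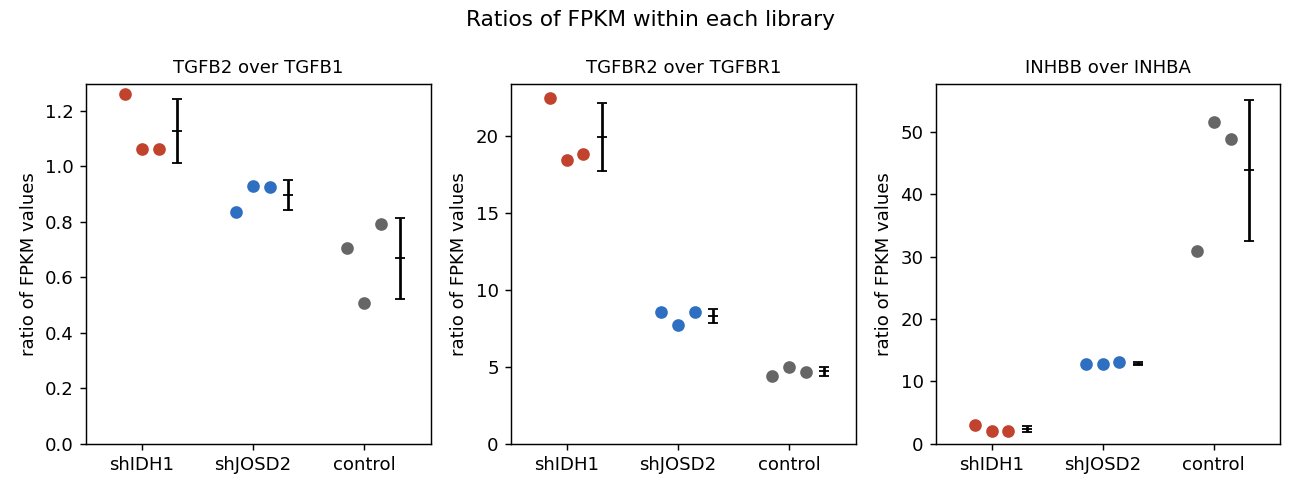
Ratios of FPKM of TGFB2 over TGFB1, TGFBR2 over TGFBR1 and INHBB over INHBA within each library (points), with the group mean and SD (n = 3), for shIDH1, shJOSD2 and control. TGFBR2 to TGFBR1 averages 19.9 in shIDH1, 8.28 in shJOSD2 and 4.70 in control, and INHBB to INHBA averages 2.36, 12.9 and 43.8 in the same order.

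SMAD7, which blocks TGFBR1 and recruits ubiquitin ligases to it, rose in shIDH1. SMAD7 (chr18:48919853-48952052, - strand) was 14.2, 13.0 and 13.5 FPKM in shIDH1, 6.84, 8.16 and 6.88 FPKM in shJOSD2, and 5.89, 4.81 and 6.28 FPKM in control. The shIDH1 libraries were above all others, and the shJOSD2 libraries were above control without overlap. The log2 change was 1.26 ± 0.10 in shIDH1 (adjusted p = 2.97e-07) and 1.04 ± 0.09 between shIDH1 and shJOSD2 (adjusted p = 2.18e-06). In shJOSD2 against control it was 0.22 ± 0.09, with a 95% interval of 0.01 to 0.43 (adjusted p = 0.0885). That value ran between 0.13 and 0.37 over the 22 alternatives and was called in 8 of them, with adjusted p between 0.0105 and 0.308 over all 22.

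SKIL encodes SnoN, a repressor that binds SMAD proteins at their targets. SKIL (chr3:170357678-170396835, + strand) was 2.84, 2.59 and 2.40 FPKM in shIDH1, 2.01, 2.02 and 1.88 FPKM in shJOSD2, and 2.67, 2.08 and 2.18 FPKM in control. The shJOSD2 libraries were below all others, by a small margin, while shIDH1 and control overlapped. The log2 change in shJOSD2 was -0.37 ± 0.10 (adjusted p = 0.0111), larger than the FPKM means show because TMM scaling shifts this group down. The call was lost without TMM factors (-0.22, adjusted p = 0.128), in the limma fits (adjusted p between 0.176 and 0.247) and without shJOSD2 replicate 3 (0.0540). In shIDH1 the log2 change was 0.18 ± 0.10, with a 95% interval of -0.04 to 0.40 (adjusted p = 0.167). It was called with upper-quartile factors (0.29, adjusted p = 0.0312) and without control replicate 1 (0.29, adjusted p = 0.0303). Between shIDH1 and shJOSD2 it was 0.55 ± 0.10 (adjusted p = 0.000669).

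Both feedback genes are induced by TGF-β, yet their proportion differed between groups. The SMAD7 to SKIL ratio of FPKM was 4.99, 5.01 and 5.63 in shIDH1, 3.40, 4.04 and 3.67 in shJOSD2, and 2.21, 2.32 and 2.88 in control. No group overlapped another in this ratio.

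Exact two-sided permutation tests on FPKM, 3 libraries against 3, cannot give a p below 0.1. They gave that value for every member and comparison except SKIL and LTBP1 in shIDH1 against control (both 0.3), and TGFB1 (0.9) and TGFB3 (1) between the hairpin groups.

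By mean FPKM, the order of the 10 genes in shIDH1 was TGFBR2, TGFB2, TGFB1, SMAD7, INHBA, LTBP1, TGFBR3, SKIL, TGFBR1 and TGFB3. Only the neighbours INHBA and LTBP1 overlapped in their libraries. In shJOSD2 the order was TGFBR2, TGFB1, TGFB2, LTBP1, TGFBR1, SMAD7, INHBA, TGFBR3, SKIL and TGFB3, with LTBP1 and TGFBR1 overlapping, and TGFBR3 and SKIL. In control it was TGFBR2, TGFB1, TGFB2, TGFBR1, LTBP1, SMAD7, SKIL, TGFBR3, INHBA and TGFB3. There TGFBR1 overlapped LTBP1, LTBP1 overlapped SMAD7, and INHBA overlapped both TGFBR3 and TGFB3. Hence TGFBR1 ranked 9 of the 10 in shIDH1, 5 in shJOSD2 and 4 in control.

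The libraries of a group were not equal across members. Control replicate 2 was the lowest control library for 7 of the 10 genes, and control replicate 1 was the highest for 7. In shIDH1, replicate 1 was the highest for 8 genes, and in shJOSD2, replicate 2 was the highest for 9.

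For the 4 members whose group means ranged most widely, the 3 genes with the most similar pattern were taken by the root-mean-square difference of centred log2(FPKM + 1) over the 9 libraries. Nearest to INHBA was SPP1, which encodes the secreted protein osteopontin, at a difference of 0.0679. SPP1 averaged 196 FPKM in shIDH1, 71.1 FPKM in shJOSD2 and 43.9 FPKM in control. The next were SSPN (0.111) and AMBP (0.122). Nearest to TGFBR1 was CMTM3 (0.128), which averaged 8.70 FPKM in shIDH1, 39.7 FPKM in shJOSD2 and 26.6 FPKM in control, followed by TRIAP1 (0.137) and GSTT2B (0.138), whose reads may be shared with its near-identical copy GSTT2. Nearest to TGFBR2 was FAM210B (0.0454), at 8.98 FPKM in shIDH1, 17.1 FPKM in shJOSD2 and 7.15 FPKM in control, followed by DYRK1B (0.0656) and ZNF704 (0.0663). Nearest to SMAD7 was TUFT1 (0.0699), at 18.8 FPKM in shIDH1, 9.81 FPKM in shJOSD2 and 7.60 FPKM in control, followed by SAMD8 (0.0775) and CADM1 (0.0789). These likenesses are descriptions over libraries that fall into 3 groups.

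The rest of the pathway was described through 8 further gene lists. Of all tested genes, 50.1% were called in shIDH1 against control, 38.3% in shJOSD2 and 44.8% between the hairpin groups. Against control, 75% of tested other ligands were called in shIDH1 and 50% in shJOSD2, and of other receptors 63.6% and 54.5%. Shares in that order were 16.7% and 66.7% for SMAD transducers, 75% and 66.7% for other inhibitors, and 54.5% and 45.5% for latency genes. They were 33.3% in both for antagonists, 85.7% and 50% for TGF-β-induced genes, and 100% in both for 3 ID genes. Among 14 other ligands of the family, 12 were tested. In shIDH1, 5 rose and 4 fell against control, with a median log2 change of -0.12, and in shJOSD2 4 rose and 2 fell, with a median of 0.45. When control replicate 1 was the only control, and 13 were tested, the medians were -0.03 in shIDH1 and 0.17 in shJOSD2. In shIDH1, GDF15, a stress-induced ligand that signals through a receptor outside this family, had the highest level, at 605 ± 86.3 FPKM against 79.6 ± 11.2 FPKM in control (log2 change 2.93 ± 0.11, adjusted p = 2.19e-09). INHBE, an activin subunit made mainly by liver, averaged 5.61 ± 1.99 FPKM in shIDH1 and 0.478 ± 0.174 FPKM in control (3.55 ± 0.38, adjusted p = 6.21e-06). NODAL, an embryonic ligand, had a larger log2 change (3.91, adjusted p = 0.00884) but stayed under 1 FPKM. In shJOSD2, BMP6, known as an inducer of hepatic hepcidin, fell to 5.41 ± 0.380 FPKM against 8.42 ± 0.634 FPKM in control (-0.79 ± 0.09, adjusted p = 2.58e-05). INHA, the inhibin alpha subunit, averaged under 1 FPKM in every group and was called higher in shJOSD2 (adjusted p = 0.0311), a call lost in 5 alternatives.

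All 11 other receptors were tested. In shIDH1, 7 rose and none fell against control, with a median log2 change of 0.53, or 0.51 with control replicate 1 as the only control. ACVR2A, a type II receptor for activins, averaged 1.64 FPKM in shIDH1 and 0.747 FPKM in control (1.13 ± 0.17, adjusted p = 9.59e-05). ACVR1C and BMPR1B also passed in shIDH1 but lay under 1 FPKM and lost their calls in 4 and 8 of 22 alternatives. In shJOSD2, 4 rose and 2 fell, with a median of 0.08, or 0.13 with that lone control. ACVR2B, the other activin type II receptor, averaged 1.82 FPKM in shJOSD2 and 0.618 FPKM in control (1.41 ± 0.11, adjusted p = 1.42e-06). Calls of BMPR1B and of the co-receptor ENG in shJOSD2, both under 1 FPKM, were each lost in 5 alternatives.

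All 6 SMAD transducers were tested, with median log2 changes of -0.03 in shIDH1 (-0.07 with control replicate 1 as the only control) and -0.15 in shJOSD2 against control. In shIDH1 none rose, 1 fell and 5 were not called. The gene that fell was SMAD4, the partner shared by the TGF-β and BMP branches, which averaged 1.96 ± 0.193 FPKM in shIDH1 and 3.09 ± 0.349 FPKM in control (-0.66 ± 0.09, adjusted p = 3.66e-05). In shJOSD2, 2 rose and 2 fell. SMAD3, one of the direct TGFBR1 substrates, averaged 28.4 ± 0.995 FPKM in shJOSD2 and 36.0 ± 3.29 FPKM in control (-0.49 ± 0.07, adjusted p = 0.000190). SMAD1, a substrate of BMP receptors, was 0.30 higher on the log2 scale (adjusted p = 0.0365), a call lost in 7 alternatives.

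Among 12 other intracellular inhibitors, 4 rose and 5 fell in shIDH1 (median log2 change 0.02, or -0.03 with control replicate 1 as the only control), and 1 rose and 7 fell in shJOSD2 (median -0.28). PMEPA1, a TGF-β target that sequesters SMAD2 and SMAD3, averaged 22.6 ± 1.47 FPKM in shIDH1, 84.8 ± 2.68 FPKM in shJOSD2 and 102 ± 7.32 FPKM in control. Its log2 change was -2.18 ± 0.07 in shIDH1 (adjusted p = 6.47e-10) and -0.42 ± 0.06 in shJOSD2 (adjusted p = 0.000228). SKI, the closest relative of SKIL, fell to 3.15 ± 0.0264 FPKM in shIDH1, against 6.14 ± 0.296 FPKM in control (-0.96 ± 0.07, adjusted p = 3.76e-07). TGIF1, a SMAD corepressor, rose in shIDH1 (1.02 ± 0.08, adjusted p = 4.30e-07) and fell in shJOSD2 (-0.75 ± 0.08, adjusted p = 1.58e-05). TGIF2, its relative, was higher in shJOSD2 (0.37 ± 0.10, adjusted p = 0.0100), a call lost with control replicate 1 as the only control.

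Genes that hold TGF-β latent or release it numbered 11. In shIDH1, 6 rose and none fell, with a median log2 change of 0.90, or 0.54 with control replicate 1 as the only control. In shJOSD2, 4 rose and 1 fell, with a median of 0.39, or 0.15 with that lone control. LTBP4, a relative of LTBP1, averaged 4.75 ± 0.149 FPKM in shIDH1, 3.99 ± 0.164 FPKM in shJOSD2 and 2.15 ± 0.397 FPKM in control, with log2 changes of 1.14 ± 0.11 (adjusted p = 2.22e-06) and 0.74 ± 0.11 (adjusted p = 0.000163). LTBP3 rose in shJOSD2 to 30.4 ± 1.65 FPKM, against 19.7 ± 1.499 FPKM in control (0.48 ± 0.07, adjusted p = 0.000114). ITGB6 and ITGB8, integrin chains that activate latent TGF-β, were under 1 FPKM on average in every group. In shIDH1 their log2 changes were 1.44 ± 0.24 (adjusted p = 0.000302) and 1.40 ± 0.39 (adjusted p = 0.00940). In shJOSD2 that of ITGB8 was 1.38 (adjusted p = 0.0136), and the ITGB8 calls were lost in 3 alternatives in shIDH1 and 2 in shJOSD2.

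Of 8 extracellular antagonists 6 were tested, and in each hairpin group 1 rose and 1 fell, with median log2 changes of -0.12 in shIDH1 and -0.42 in shJOSD2. Both medians turned with control replicate 1 as the only control, to 0.36 in shIDH1 and 0.07 in shJOSD2. NOG, a secreted BMP antagonist, averaged 6.38 ± 0.498 FPKM in shIDH1 and 3.79 ± 0.590 FPKM in control (0.75 ± 0.13, adjusted p = 0.000322). Its log2 change in shJOSD2 was 0.35 ± 0.13 (adjusted p = 0.0444), lost in 12 of 22 alternatives. The gene that fell in each, BGN, is outside the naming rule and was chosen after its values were seen. It had 12, 0 and 0 counts in shIDH1, 0, 8 and 0 counts in shJOSD2, and 8, 84 and 89 counts in control, so that its calls rest on control replicates 2 and 3.

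Of 15 TGF-β-induced genes, 14 were tested. In shIDH1, 10 rose and 2 fell against control, with a median log2 change of 0.54, or 0.87 with control replicate 1 as the only control. In shJOSD2, 3 rose and 4 fell, with a median of -0.04, or -0.09 with that lone control. Between shIDH1 and shJOSD2, 9 were higher and 1 was lower, or 71.4% called against 44.8% of all tested genes. CCN2, also a standard YAP/TAZ target, averaged 397 ± 33.7 FPKM in shIDH1 and 53.0 ± 8.56 FPKM in control (2.91 ± 0.10, adjusted p = 9.92e-10). COL4A1, a basement membrane collagen, averaged 58.8 ± 0.869 FPKM in shIDH1 and 12.3 ± 1.20 FPKM in control (2.25 ± 0.07, adjusted p = 5.63e-10). In shJOSD2, SNAI2, a transcription factor of epithelial to mesenchymal transition, rose to 15.1 ± 0.801 FPKM, against 3.58 ± 0.352 FPKM in control (1.93 ± 0.09, adjusted p = 2.04e-08). BHLHE40, a basic helix-loop-helix repressor, fell in shJOSD2 (-1.12 ± 0.09, adjusted p = 1.78e-06), as did PDGFB, a mesenchymal growth factor (-0.87 ± 0.06, adjusted p = 8.52e-07). The lower level of BHLHE40 was not particular to shJOSD2. It averaged 17.3 FPKM in shIDH1, 17.3 FPKM in shJOSD2 and 34.1 FPKM in control. PDGFB averaged 25.8 FPKM in shIDH1, 9.95 FPKM in shJOSD2 and 16.5 FPKM in control.

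ID1 and ID3, which are induced by the BMP branch and repressed by TGF-β in many epithelia, fell in both hairpin groups. ID1 averaged 29.8 ± 6.89 FPKM in shIDH1 and 85.6 ± 26.6 FPKM in control, with log2 changes of -1.53 ± 0.21 in shIDH1 (adjusted p = 5.27e-05) and -0.92 ± 0.21 in shJOSD2 (adjusted p = 0.00350). ID3 averaged 6.64 ± 0.946 FPKM in shIDH1 and 16.8 ± 3.88 FPKM in control, with log2 changes of -1.35 ± 0.18 (adjusted p = 5.33e-05) and -1.31 ± 0.18 (adjusted p = 0.000122). ID2 was 0.22 ± 0.06 higher in shIDH1 (adjusted p = 0.00632) and fell in shJOSD2 (-0.43 ± 0.06, adjusted p = 9.53e-05). Over these 3 tested ID genes of 4, the median log2 change was -1.35 in shIDH1 and -0.92 in shJOSD2. When control replicate 1 was the only control, and all 4 were tested, the medians were -0.54 in shIDH1 and -0.70 in shJOSD2. With control replicate 1 as the only control, counts of called genes moved in some lists, among them extracellular antagonists, SMAD transducers and other receptors. The share of all genes called in that fit is not given here.

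**Figure D4:**
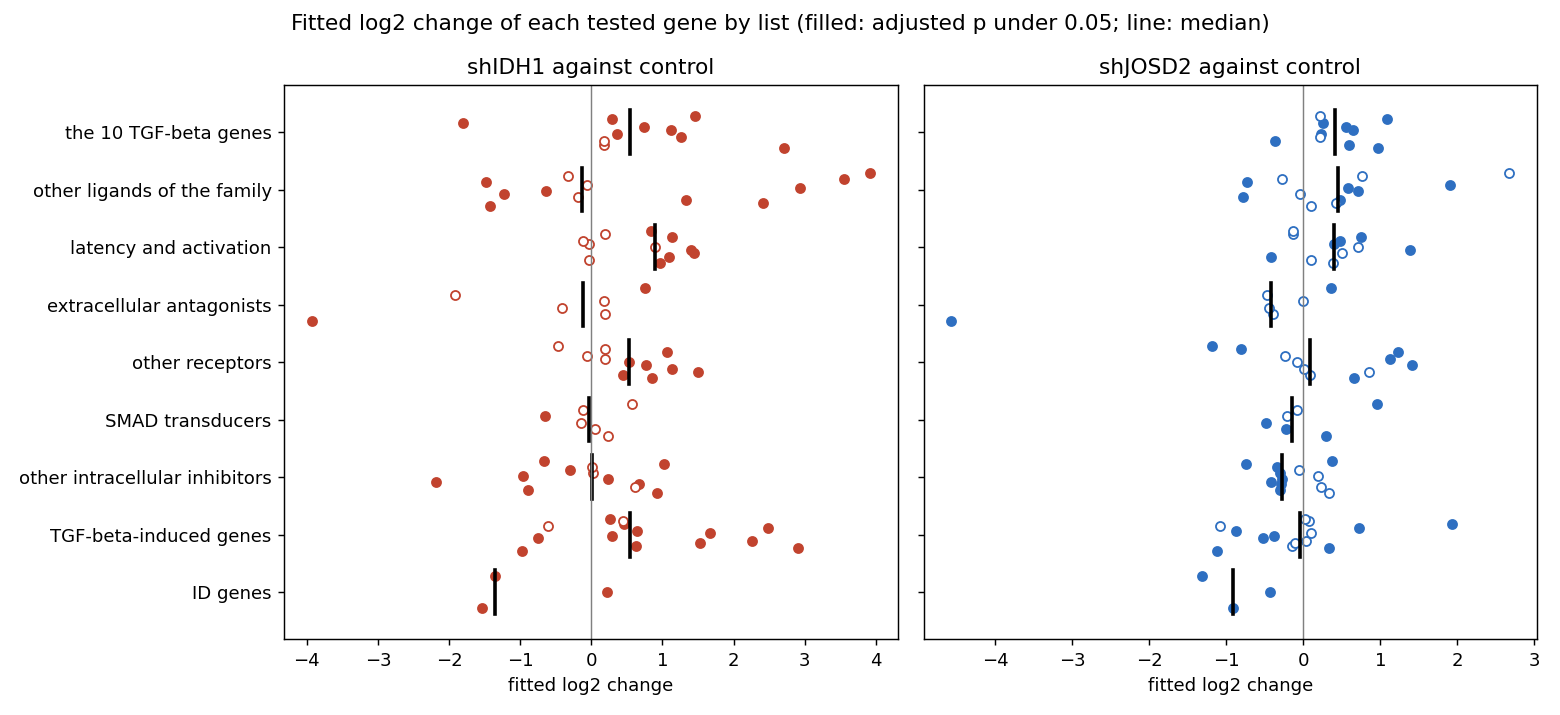
Log2 change (x axis) of each tested gene by TGF-β pathway list, in shIDH1 against control and in shJOSD2 against control, from edgeR's quasi-likelihood fit; filled points passed the threshold of 0.05 and black lines are list medians. The median of the TGF-β-induced genes lies at 0.54 in shIDH1 and -0.04 in shJOSD2, and that of the latency and activation genes at 0.90 and 0.39; with control replicate 1 as the only control these 4 medians are 0.87, -0.09, 0.54 and 0.15.

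Markers of other cell types moved with some of these groups. The 7 fibroblast and stellate markers summed to between 34.4 and 36.4 FPKM in shIDH1, between 32.4 and 33.5 FPKM in shJOSD2 and between 13.9 and 16.7 FPKM in control. COL1A2, COL3A1, LUM and DCN were under 1 FPKM in every library. The sum was mostly ACTA2, at a mean of 27.3 FPKM in shIDH1, 28.2 FPKM in shJOSD2 and 12.8 FPKM in control. The 7 leukocyte markers summed to between 26.4 and 29.8 FPKM in shIDH1, between 25.04 and 32.9 FPKM in shJOSD2 and between 32.4 and 40.02 FPKM in control. The 6 transcripts taken as signs of RNA quality, mainly the nuclear RNAs MALAT1 and NEAT1, summed to between 37.9 and 38.4 FPKM in shIDH1, between 38.6 and 40.3 FPKM in shJOSD2 and between 21.6 and 30.5 FPKM in control. The part of these differences in the results above was not tested.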

How the data were processed

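Poly(A) RNA of 9 RBE libraries (3 each of shIDH1, shJOSD2 and control) was sequenced from libraries with molecular identifiers, per the labels' protocols. The submitters' processing notes name cutadapt 1.9, HISAT2 2.0.4, UMI-tools, StringTie 1.3.4d and GRCh38, without their order or settings. The authors deposited 1 table with a whole-number count and an FPKM value per gene and library, per the file headers. The counts appear to hold about 4 for each fragment, as judged from their values, so they overstate the number of molecules, and dividing them by 4 was an alternative. Replicates differed by more than sampling noise even after that division (chi-square per degree of freedom 3.88 to 11.0).

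Here, genes were filtered with filterByExpr, scaled with TMM factors and tested with edgeR 4.0.16 (glmQLFit, glmQLFTest; R 4.3.3) over all 9 libraries with no block. P-values were adjusted by the Benjamini-Hochberg method over 21492 genes. The code was tested on simulated data. The 22 alternatives include limma 3.58.1 on log2(FPKM + 1), DESeq2 1.42.0, other scalings and filters, leaving out each library, and control replicate 1 as the only control, which was chosen from earlier results of these data. Named genes were all 10 members, and up to 3 called genes per list and comparison with control that had the largest log2 change and FPKM ranges that did not overlap; INHBB and BGN, and shJOSD2 values set beside shIDH1 values, are additions, and 1 gene that the rule names is not reported here. Members and lists were chosen with earlier results of these data known.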

Additional observations from a re-analysis of the deposited data

How the results depend on the processing

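Across the 10 members, the listed pathway genes and the 2 targeted genes, 132 log2 changes were recomputed under up to 22 alternatives, giving 2847 values. Of these, 2701 kept their side of the threshold, 101 lost a call, 45 gained one and 0 called values turned round. With the replicate number as a block, TGFBR1 in shJOSD2 against control lost its call (adjusted p = 0.0594). The other member calls stayed as they were in the 3 comparisons. Replicate numbers did not pair the libraries: the deviations of same-numbered libraries correlated between -0.018 and 0.0378 over 9 pairs, and those of different numbers between -0.0549 and 0.0287. Leaving out each library in turn gave 8 to 10, 7 to 9 and 8 to 9 called members in the 3 comparisons, and 9724 to 10635, 6939 to 8248 and 8430 to 9927 called genes. With control replicate 1 as the only control, the median log2 change over the members was 0.63 in shIDH1 and 0.31 in shJOSD2. Scaling moved the balance of calls: in shJOSD2 against control, 47.4% of called genes were higher, against 65.8% without TMM factors, 58% with upper-quartile factors and 63.9% to 64.7% in the limma fits. In shJOSD2 against control, TGFBR3 and SMAD7 were called and SKIL was not without TMM factors, while TGFB1 and TGFBR1 kept their calls there, with upper-quartile factors and in the limma fits. Log2(FPKM + 1) lowers the change of low genes by construction: TGFB3 in shIDH1 was 0.42 and TGFBR3 between the hairpin groups 0.81. Members had 353 to 44298 counts per library, and intervals cover the spread between these libraries only.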

Other observations

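Several ligands of the BMP and anti-Müllerian branches, chosen after their values were seen, differed between the hairpin groups. BMP2, a bone morphogenetic protein, averaged 2.39 FPKM in shIDH1, 0.662 FPKM in shJOSD2 and 0.444 FPKM in control, with a log2 change of 2.42 in shIDH1 against control by edgeR's quasi-likelihood test. BMP4 averaged 6.43 FPKM in shIDH1, 3.93 FPKM in shJOSD2 and 2.54 FPKM in control, and its log2 change was 1.33 in shIDH1 and 0.48 in shJOSD2. AMH, the anti-Müllerian hormone, averaged 1.55 FPKM in shIDH1, 4.94 FPKM in shJOSD2 and 4.17 FPKM in control, and fell in shIDH1 by 1.43 on the log2 scale. GDF11, a relative of myostatin, fell in shIDH1 (-0.64) and rose in shJOSD2 (0.70), at 2.05 FPKM in shIDH1, 5.76 FPKM in shJOSD2 and 3.19 FPKM in control.

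ITGAV, the alpha chain that pairs with ITGB6 and ITGB8, averaged 56.0 FPKM in shIDH1, 21.8 FPKM in shJOSD2 and 26.4 FPKM in control. It rose in shIDH1 (log2 change 1.09) and fell in shJOSD2 (-0.42). THBS1, which encodes the matrix protein thrombospondin 1 and can release latent TGF-β, averaged 47.9 FPKM in shIDH1, 26.8 FPKM in shJOSD2 and 26.6 FPKM in control. Its log2 change was 0.84 in shIDH1, and it was -0.14 and not called in shJOSD2.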
